A study of Mus musculus with 12 samples.

Results

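The comparison set the 6 arrays of calf muscle from mice that had received adenovirus for a short hairpin RNA (shRNA) against TSC22D4 against the 6 arrays from mice that had not, which together are all 12 arrays of the series. Arrays were assigned to either side by their titles alone, while the comparison itself was chosen with earlier results of these data known. All 25206 probe sets of the deposited table were fitted at once with TSC22D4 virus and LCN13 virus as separate, additive factors, so that the estimate is the mean of the effect of TSC22D4 virus without and with LCN13 virus. A transcript is described as risen or fallen where limma gave an adjusted p below 0.05, and all such transcripts moved in one direction on both backgrounds.

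RNA came from the gastrocnemius of db/db mice (BKS.Cg-Dock7m +/+ Leprdb/J), aged 12 weeks, a strain without functional leptin receptor signalling that is used as a model of obesity with diabetes. Mice in 4 groups of 7 received adenovirus, 4e+09 plaque-forming units per treatment group as the labels put it, and were killed 1 week after the injection. The labels do not say whether that amount is per animal. Of each group 3 animals, which the labels call representative, were placed on arrays. The labels do not say how they were picked, and p-values measure the spread between these animals only. The control shRNA group (animals 18, 19 and 20) received 4e+09 units of control virus. The LCN13 shRNA group (21, 22 and 23) received 2e+09 units of LCN13 virus and 2e+09 of control virus, and the TSC22D4 shRNA group (25, 26 and 27) received 2e+09 units of TSC22D4 virus and 2e+09 of control virus. The TSC22D4+LCN13 shRNA group (29, 30 and 32) received 2e+09 units of each target virus and 0 of control virus. On both backgrounds TSC22D4 virus thus took the place of 2e+09 units of control virus, and the effect of the one and the loss of the other cannot be told apart. The sources used here do not give the tissue that the virus reached.

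TSC22D4 is a leucine zipper protein of the TSC22 domain family, a group of transcriptional regulators that form dimers and have no classical DNA-binding domain. In liver it is known for its part in lipid secretion and insulin sensitivity, where the secreted lipocalin LCN13 is one of its targets. An shRNA is processed into a small interfering RNA that directs cleavage of its target transcript. Adenoviral DNA and RNA are themselves sensed by cells and can induce interferon, a secreted signal that switches on antiviral genes.

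Levels are log2 values, which ran from 4.78 to 14.09 over all probe sets and arrays with a median of 5.45, and arrays correlated with each other at 0.990 to 0.998. For a group of 6 arrays the lowest, median and highest level are given in that order. The targeted transcript was examined first. Tsc22d4 measured 6.43, 6.71 and 7.00 in the 6 arrays without TSC22D4 virus and 6.71, 6.80 and 7.01 in the 6 with it. The groups overlapped, and the log2 difference was 0.12 (SE 0.0889, limma adjusted p = 0.517, 95% interval -0.08 to 0.31), with 0.24 without and 0.00 with LCN13 virus. A lower level of the target was not detected in this muscle, and the arrays are called by their labels. The 16 measured fast fibre genes had a median level of 13.47, far above the 5.45 of all probe sets. Obp2a, the current symbol of Lcn13, lay near the floor of the array, at 4.90, 4.92 and 4.96 without and 4.91, 4.92 and 4.97 with TSC22D4 virus. Of the 10 measured genes of the TSC22 domain family and its kinase and pseudokinase partners, 0 rose and 0 fell by limma (0 and 2 at an unadjusted p below 0.05), with a median log2 difference of -0.05.

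TSC22D4 virus went with many small changes that had one sign on both backgrounds and with a few large ones, among them those of small nucleolar RNA genes, interferon genes and red cell transcripts. Of 25206 probe sets 593 passed (2.35%), of which 217 rose (0.861%) and 376 fell (1.49%), and 545 of the 593 had a gene symbol. All 593 differences had the same sign without and with LCN13 virus, against 60.3% of all probe sets, although passing the test of the mean effect favours such probe sets. The median log2 difference was 0.25 among the rises and -0.22 among the falls, 37 of the 593 differences exceeded 0.5, and 3 rises and 8 falls exceeded 2-fold. In 347 of the 593 the 6 arrays with the virus did not overlap the 6 without it, and over all probe sets this held for 589 (2.34%), 200 of them higher and 389 lower with the virus.

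Set against their own controls, the backgrounds gave different numbers. Without LCN13 virus 72 probe sets passed (0.286%), 9 up (0.0357%) and 63 down (0.25%), and 49 of these 72 (68.1%) had the same sign with LCN13 virus. With LCN13 virus 1058 passed (4.2%), 320 up (1.27%) and 738 down (2.93%), and 863 of them (81.6%) had the same sign without it. The backgrounds share no array, and 15 probe sets passed on both, 14 of them with one sign. Scarna13, Mir1956, Pnrc1, Matr3, Ppt1, Oasl2, Cdv3, Ggcx, Copz2, Adar, Mrps18b, Eif2s2 and Yif1b are the named members of these 14, and Dtx3l, an E3 ligase of the interferon response, had opposite signs (-0.76 without and 0.45 with LCN13 virus). The effect itself differed between the backgrounds at 26 probe sets (0.103% by limma's interaction contrast, 2414 at an unadjusted p below 0.05), of which 14 belonged to the list of 47 interferon genes. Of the 593 probe sets 5 were among these 26.

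These counts moved with the arrays and the fit. Fitted to their own 6 arrays, 33 probe sets passed without LCN13 virus and 0 with it (4132 at an unadjusted p below 0.05 by limma). The 72 without LCN13 virus became 38 without animal 25 or 26. The 1058 with it became 359 without animal 21, 617 without 22, 607 without 23, 510 without 29 and 439 without 32. The 26 that differed between the backgrounds became 9 without animal 18, 50 without 19, 15 without 21, 12 without 22, 6 without 25, 5 without 26, 1 without 27, 11 without 29 and 16 without 32.

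**Figure D1:**
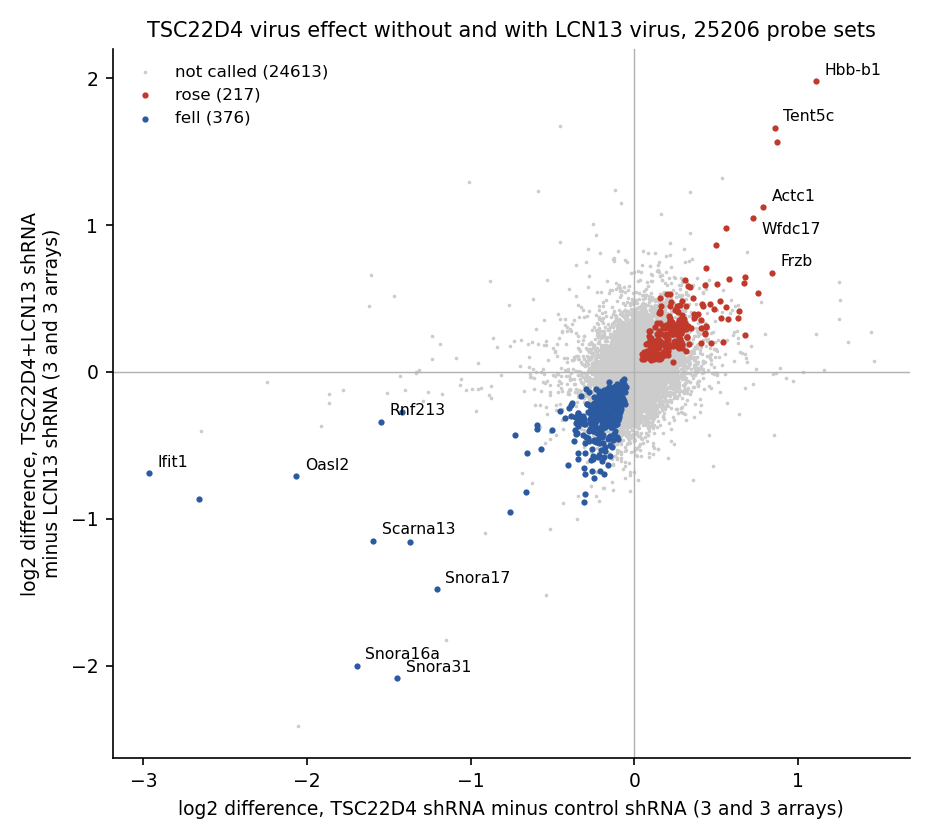
Each point is 1 of 25206 probe sets, with the log2 difference between TSC22D4 shRNA and control shRNA on the x axis and that between TSC22D4+LCN13 shRNA and LCN13 shRNA on the y axis, each from 3 and 3 arrays. The 217 probe sets that rose (red) lie in the upper right quadrant and the 376 that fell (blue) in the lower left, with small nucleolar RNA genes near the diagonal and Ifit1, Oasl2 and Rnf213 far to the left of it.

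The count of 593 depended on which arrays entered. It lay between 217 and 562 when 1 array was left out at a time, the lowest without animal 32. It was also low without animal 19 (358), 21 (375), 22 (227), 23 (236), 25 (285), 26 (332) or 29 (348). A score of 9 hepatocyte markers was highest in LCN13 animals 22 and 23 and in TSC22D4+LCN13 animal 30, and with this score as a covariate 177 probe sets passed, 58 up and 119 down. The whole list of 23 measured hepatocyte genes had a mean deviation of -0.28 to 0.44 in the 6 arrays with the virus and -0.27 to 0.77 in the 6 without it, 0 of its members passed (3 fell at an unadjusted p below 0.05), and 21 lay below 0 with a median of -0.13. In all 12 fits that left out 1 array 158 probe sets passed, 55 up and 103 down.

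Small nucleolar RNA genes were among the largest falls. Most H/ACA small nucleolar RNAs guide the conversion of uridine to pseudouridine in ribosomal RNA, C/D small nucleolar RNAs guide methylation of the ribose, and small Cajal body RNAs do the same for the RNAs of the spliceosome. Most of them are cut from introns of host genes. By name 107 such genes were on the array, a list added after the values were seen. Of these 12 fell (11.2%) and 0 rose, against 1.49% and 0.861% of all probe sets. The 34 H/ACA genes (Snora) held 8 of the falls, and their median was -0.16. In the comparison of 6 with 6, 30 of the 34 lay below 0, as did 30 without and 23 with LCN13 virus. Their mean deviation was 0.01 to 0.33 in the arrays without TSC22D4 virus and -0.33 to -0.00 in those with it, without overlap. Of the 65 C/D genes (Snord) 2 fell, with a median of 0.01, and 39 lay above and 26 below 0. Their median level was 5.68, against 6.64 for the H/ACA genes. At an unadjusted p below 0.05 by limma 11 C/D genes were higher and 10 lower. Snord13, Snord71 and Snord104 differed by -1.03, -0.68 and -0.52 and did not pass. Of the 8 Cajal body RNA genes (Scarna) 2 fell, and the median was -0.17. All 8 lay below 0 in the comparison of 6 with 6, 7 without and 4 with LCN13 virus, and 3 had one sign on both backgrounds.

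Snora16a, an H/ACA guide, measured 8.76, 9.51 and 10.32 without TSC22D4 virus and 6.90, 7.59 and 8.42 with it. All 6 arrays with the virus lay below all 6 without it, and the level was 3.6-fold lower (log2 difference -1.85, SE 0.284, limma adjusted p = 0.0146). The difference was -1.70 without and -2.00 with LCN13 virus. Scarna13, a Cajal body guide RNA, measured 10.39, 10.87 and 11.22 without and 8.73, 9.59 and 10.29 with the virus. Its levels did not overlap either, and it fell by 1.37 (SE 0.184, limma adjusted p = 0.00995), with differences of -1.59 without and -1.15 with LCN13 virus. Snora17 measured 10.36, 11.17 and 12.00 without and 9.39, 9.79 and 10.25 with it. It fell by 1.35 (SE 0.179, limma adjusted p = 0.00995) with no overlap.

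Snora73b measured 8.23, 8.99 and 9.18 without and 7.11, 7.56 and 8.05 with the virus. Snora73a measured 6.09, 6.39 and 6.91 without and 5.48, 5.61 and 5.86 with it. Both are copies of an H/ACA RNA that acts in the cutting of the ribosomal RNA precursor rather than as a guide, and both fell, by 1.26 and 0.86, without overlap. Their sequences are nearly identical, so probes may not tell them apart. Snora31 measured 8.68, 9.04 and 9.34 without and 6.09, 7.31 and 8.53 with the virus, and fell by 1.77 (limma adjusted p = 0.0353) with no overlap. Smaller falls were those of Snora74a (-0.74), Snora28 (-0.39), Snord87 (-0.37), Scarna3a (-0.37), Snord23 (-0.35) and Snora7a (-0.30). Scarna6 had the largest difference of the 107, -2.23, and did not pass (limma adjusted p = 0.082). Its 6 arrays without the virus lay close together at 11.22, 11.43 and 11.67, while those with it were spread over 7.12, 9.19 and 11.08.

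Of the 12 that fell, Snora16a, Scarna13, Snora17, Snora73b, Snora73a and Snora74a passed limma in all 12 fits that each left out 1 array, and the others in fewer: Snord87 in 10 (highest adjusted p = 0.0556, without animal 32), Snora31 in 4 (highest adjusted p = 0.0793, without animal 32), Snora28 in 4 (highest adjusted p = 0.0836, without animal 32), Scarna3a in 4 (highest adjusted p = 0.0855, without animal 32), Snora7a in 3 (highest adjusted p = 0.0777, without animal 32) and Snord23 in 2 (highest adjusted p = 0.0919, without animal 32). With the hepatocyte score in the fit, Snora16a, Scarna13, Snora17, Snora73b and Snora73a passed, whereas Snora74a, Snord87, Snora31, Snora28, Scarna3a, Snora7a and Snord23 did not (adjusted p from 0.0763 for Snora74a to 0.131 for Snora31). In bulk tissue, fewer cells of a type and less RNA per cell cannot be told apart.

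The measured transcripts of genes that span these RNAs did not show falls of this size. In the RefSeq annotation, with strand not considered, the spans of 11 distinct measured genes held small RNAs that fell. The log2 differences of the 11 lay between -0.22 and 0.09. Snord87 lay within both Mcmdc2 and Snhg6. Rpl32, which spans Snora7a, had no value here and was not compared. Snhg3, the host of Snora73a and Snora73b, fell (-0.22, limma adjusted p = 0.0337), and it was the only 1 of the 11 to pass. Snhg12, which spans Snora16a, differed by 0.09, Snhg10, which spans Scarna13, by -0.07, Snhg7, which spans Snora17, by 0.04 and Tpt1, which spans Snora31, by 0.00. These 4 did not pass, nor did Nop53, which spans Snord23 (-0.20, adjusted p = 0.0628). Snhg3 passed in 5 of 12 fits with 1 array left out (highest adjusted p = 0.0747, without animal 22).

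**Figure D2:**
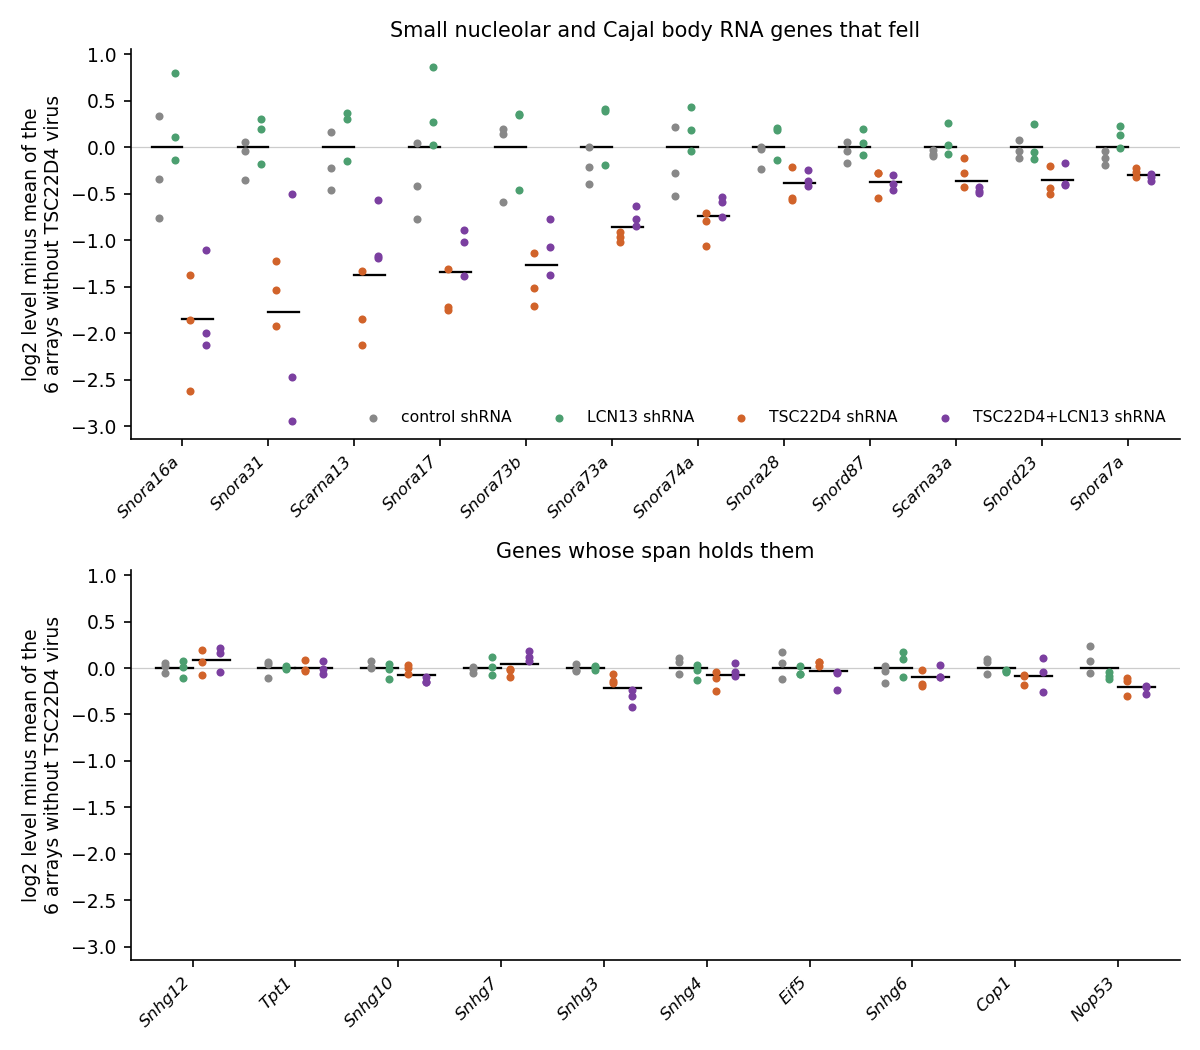
Log2 level of each of 12 arrays minus the mean of the 6 arrays without TSC22D4 virus. The top panel shows the 12 small nucleolar and Cajal body RNA genes that fell. The bottom panel shows 10 of the 11 measured genes whose span holds such an RNA. Bars lie at the means of the 6 arrays without and the 6 with the virus. In the upper panel the orange and purple points of Snora16a, Scarna13, Snora17 and Snora73b lie below all grey and green points, and in the lower panel the means of these genes lie between -0.22 and 0.09.

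Among the RNA parts of ribonucleases P and MRP and their protein partners named here, some fell and 1 rose. They were chosen after their values were seen, and other protein subunits are not given. Of 3 probe sets annotated as ribonuclease P RNA 1 fell and 0 rose. Rpph1, the RNA subunit of ribonuclease P, which trims the leader from transfer RNA precursors, fell by 0.58 (SE 0.126, limma adjusted p = 0.0433). Pop5, a protein subunit of the same enzyme, fell by 0.49 (adjusted p = 0.0474), while Pop4, another subunit, rose by 0.18 (adjusted p = 0.0471). Rmrp, the RNA of the related ribonuclease MRP, differed by -0.25 and did not pass. n-R5s136, a ribosomal RNA gene with many near-identical copies, fell by 0.60 (adjusted p = 0.0283). For these genes, the fits that each left out 1 array were passed by Rpph1 in 3 (highest adjusted p = 0.0916, without animal 23), Pop5 in 0 (highest adjusted p = 0.0992, without animal 23), Pop4 in 3 (highest adjusted p = 0.0978, without animal 32) and n-R5s136 in 6 (highest adjusted p = 0.0687, without animal 32). When the hepatocyte score was included, Rpph1, Pop5, Pop4 and n-R5s136 did not pass (adjusted p from 0.108 for n-R5s136 to 0.158 for Pop4).

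The 4 falls of named protein-coding genes with the smallest p were those of Cdv3, Tent4a, Matr3 and Eif2s2. Cdv3, a conserved gene of unclear function, measured 8.07, 8.12 and 8.17 without and 7.60, 7.71 and 7.84 with TSC22D4 virus. The groups did not overlap, and it had the smallest adjusted p of all falls (log2 difference -0.42, SE 0.0338, limma adjusted p = 0.00253). Matr3, an RNA-binding protein of the nuclear matrix, measured 9.27, 9.32 and 9.40 without and 8.93, 9.00 and 9.09 with it, and fell by 0.32 (SE 0.0351, limma adjusted p = 0.00566) with no overlap. Tent4a, a polymerase that extends poly(A) tails, fell by 0.38, and Eif2s2, the beta subunit of the factor that brings the initiator transfer RNA to the ribosome, by 0.34. Both were lower in every array with the virus than in every array without it.

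Single splicing and polyadenylation factors were among the smaller falls, and these were chosen after their values were seen. Sf3b2, of the splicing complex that recognises the branch point, fell by 0.21, Luc7l3, a protein of the early spliceosome, by 0.29, and Snrpd1, of the ring of Sm proteins on spliceosomal RNAs, by 0.16. Fip1l1, of the complex that cuts and polyadenylates messenger RNA, fell by 0.23, while Cpsf3, the nuclease of the same complex, rose by 0.28. Of 20 Hnrnp genes 3 fell (Hnrnpul2, Hnrnpu and Hnrnpd) with a median of -0.07. Of 10 Srsf genes 1 fell (Srsf5) with a median of -0.13. The Srsf median was -0.00 without and -0.26 with LCN13 virus, and that of the Hnrnp genes -0.08 and -0.06. One sign on both backgrounds was found in 4 of the 10 Srsf and 17 of the 20 Hnrnp genes, against 60.3% of all probe sets. Of all 25206 probe sets 1.49% fell, with a median of -0.00, against 15% of the Hnrnp and 10% of the Srsf genes. Both families were collected by name after the values were seen.

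Single genes of ribosome assembly fell, likewise chosen after their values were seen. Ncl, nucleolin, fell by 0.20, and Dnttip2 and Gtpbp4, which act in the assembly of ribosomal subunits, by 0.34 and 0.17. Of 34 measured genes of the cytosolic ribosome list 3 fell (8.82%, against 1.49% of all probe sets), with a list median of -0.08. These were Rps20, by 0.23, Rpl8, by 0.17, and Rpl4, by 0.13. The list held 48 genes, and the median level of the 34 measured was 5.51, against 5.45 for all probe sets. On either background alone 0 of the 34 passed. The mean deviation of the list was -0.07 to -0.01 in the arrays with TSC22D4 virus and 0.01 to 0.07 in those without it. The groups did not overlap, and the nearest arrays lay at -0.01 and 0.01. Of 51 genes of translation initiation factors by name 4 fell (7.84%, against 1.49% of all probe sets), with a median of -0.03. These were Eif2s2, Eif4a2, Eif2a and Eif4g2.

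Of 20 nucleoporin genes by name, collected after the values were seen, 2 fell (10%, against 1.49% of all probe sets). These were Nup133, by 0.23, and Nup85, by 0.22, both of the complex that builds the outer rings of the nuclear pore. The median of the 20 was -0.00, with 9 above and 11 below 0. Ahctf1, which brings that complex to chromatin, fell by 0.30. Suz12 and Eed, core members of the Polycomb complex that methylates histone H3, fell by 0.28 and 0.23. Ctcf, the insulator protein of chromatin loops, fell by 0.17, and the chromatin remodeller Atrx by 0.20. Ppp4c and Ppp4r3b, the catalytic and a regulatory subunit of a nuclear phosphatase, fell by 0.21 and 0.36. They are 2 of 6 genes named Ppp4 (33.3%, against 1.49% of all probe sets), likewise collected after the values were seen. All 6 lay below 0 with a median of -0.16, as did 13134 of all 25206 probe sets. Without LCN13 virus 6 lay below 0 and with it 5.

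Of these genes of RNA, ribosomes and chromatin, Cdv3, Matr3, Tent4a, Eif2s2, Sf3b2, Luc7l3, Snrpd1, Fip1l1, Cpsf3, Ncl, Dnttip2, Rpl4, Ahctf1, Ctcf, Atrx, Ppp4r3b and Hnrnpul2 passed limma in all 12 fits that each left out 1 array, and the others in fewer: Nup85 in 11 (highest adjusted p = 0.0552, without animal 22), Rps20 in 9 (highest adjusted p = 0.061, without animal 22), Rpl8 in 4 (highest adjusted p = 0.0725, without animal 23), Nup133 in 4 (highest adjusted p = 0.0641, without animal 23), Gtpbp4 in 3 (highest adjusted p = 0.0838, without animal 23), Suz12 in 3 (highest adjusted p = 0.0826, without animal 32), Eed in 2 (highest adjusted p = 0.0793, without animal 32), Ppp4c in 1 (highest adjusted p = 0.102, without animal 22), Hnrnpu in 7 (highest adjusted p = 0.0617, without animal 32), Hnrnpd in 2 (highest adjusted p = 0.0894, without animal 22), Srsf5 in 2 (highest adjusted p = 0.0917, without animal 23), Eif4a2 in 11 (highest adjusted p = 0.0512, without animal 32), Eif2a in 4 (highest adjusted p = 0.0724, without animal 23) and Eif4g2 in 2 (highest adjusted p = 0.0783, without animal 25). When the hepatocyte score was added, Cdv3, Matr3, Tent4a, Eif2s2, Sf3b2, Luc7l3, Cpsf3, Ncl, Dnttip2, Rpl4, Ahctf1, Ctcf and Eif4g2 passed, whereas Snrpd1, Fip1l1, Atrx, Ppp4r3b, Hnrnpul2, Nup85, Rps20, Rpl8, Nup133, Gtpbp4, Suz12, Eed, Ppp4c, Hnrnpu, Hnrnpd, Srsf5, Eif4a2 and Eif2a did not (adjusted p from 0.0519 for Ppp4r3b to 0.173 for Ppp4c).

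The 2 rises with the smallest adjusted p were in the secretory pathway, through which proteins move from the endoplasmic reticulum to the Golgi. There they are folded, given sugar chains built on the lipid dolichol, and returned by coated vesicles if they belong to the reticulum. Copz1 and Copz2 are alternative zeta subunits of the COPI coat, which forms the returning vesicles. Copz2 measured 9.04, 9.23 and 9.39 without TSC22D4 virus and 9.33, 9.55 and 9.71 with it. The groups overlapped, and it rose by 0.31 (SE 0.0275, limma adjusted p = 0.00253), by 0.29 without and 0.33 with LCN13 virus. Copz1 measured 9.71, 9.85 and 9.95 without and 10.13, 10.21 and 10.32 with the virus. Its levels did not overlap, and it rose by 0.38 (SE 0.0474, limma adjusted p = 0.00891). Kdelr3, a receptor that carries resident proteins back to the reticulum, rose by 0.64 (adjusted p = 0.0444), from 5.98, 6.39 and 6.84 without to 6.42, 6.91 and 7.71 with the virus, and its groups overlapped. Of the 23 measured genes of the COPI and secretory coat list these 3 rose (13%, against 0.861% of all probe sets) and 0 fell. The list median was 0.04. The coat subunits Copa, Copb1, Copb2, Copg1 and Arcn1 lay between -0.10 and 0.03 and did not pass.

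Yif1b, a membrane protein of traffic between reticulum and Golgi, measured 10.24, 10.31 and 10.47 without and 10.50, 10.59 and 10.73 with the virus. All 6 with the virus were higher, and the rise of 0.28 (SE 0.0247, limma adjusted p = 0.00253) came with 0.27 without and 0.29 with LCN13 virus. Of the 9 genes of this family by name (Yif1 and Yipf) 3 rose (33.3%, against 0.861% of all probe sets). The others that rose were Yif1a (0.38) and Yipf3 (0.30), and the family was collected after the values were seen. Of the 9, 5 lay above and 4 below 0, and 4 had one sign on both backgrounds. The family median was 0.07, with 0.17 without and 0.01 with LCN13 virus, where 3 rose and 1 fell. Ergic3, a cargo receptor of the compartment between reticulum and Golgi, rose by 0.27, Ssr2, of the complex beside the protein-conducting channel, by 0.21, and the cargo receptor M6pr, which sends enzymes to lysosomes, by 0.23.

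Some enzymes of the reticulum rose too. Ggcx, the vitamin K-dependent gamma-carboxylase, measured 7.11, 7.33 and 7.67 without and 7.51, 7.69 and 7.96 with the virus, and rose by 0.37 (SE 0.0407, limma adjusted p = 0.00566). Fkbp14, a prolyl isomerase of collagen folding, rose by 0.50, and Jmjd8, a protein of the reticulum lumen, by 0.34. Dhdds and Srd5a3, which make the carrier lipid dolichol, rose by 0.33 and 0.45. Others of the pathway fell: Dpm1, which loads mannose onto dolichol phosphate, by 0.23, the oxidase Ero1a by 0.25, the translocation factor Sec63 by 0.21, the membrane fusion protein Ykt6 by 0.26 and the golgin Tmf1 by 0.27. Of 29 measured genes of the unfolded protein and integrated stress response 0 rose and 0 fell (4 and 3 at an unadjusted p below 0.05 by limma), with a median of -0.02.

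For some of these rises LCN13 virus gave a difference of like size. Ggcx rose with LCN13 virus by 0.37 (limma adjusted p = 0.0155) and Copz2 by 0.28 (adjusted p = 0.0155), 2 of the 17 probe sets that passed for that virus (0.0674%, with 3141 at an unadjusted p below 0.05). Fkbp14, Kdelr3 and Srd5a3 differed by 0.41, 0.56 and 0.39 with LCN13 virus, which did not pass. Copz1, Ergic3, Yif1a, Yipf3 and Dhdds differed by 0.03, 0.04, 0.06, 0.01 and 0.01. The difference between the effects of the viruses was not past the threshold for any of these 10 genes, with limma adjusted p from 0.108 (Ergic3) to 0.989 (Ggcx).

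In this group of genes, Copz2, Copz1, Yif1b, Ergic3, Ggcx, Fkbp14, Jmjd8, Dhdds, Srd5a3, M6pr, Ero1a and Tmf1 passed limma in all 12 fits that each left out 1 array, and the others in fewer: Sec63 in 11 (highest adjusted p = 0.0517, without animal 23), Yif1a in 10 (highest adjusted p = 0.0531, without animal 23), Dpm1 in 9 (highest adjusted p = 0.0616, without animal 23), Ssr2 in 7 (highest adjusted p = 0.069, without animal 32), Yipf3 in 5 (highest adjusted p = 0.0687, without animal 32), Kdelr3 in 2 (highest adjusted p = 0.0917, without animal 23) and Ykt6 in 2 (highest adjusted p = 0.0791, without animal 32). With the hepatocyte score in the fit, Copz2, Copz1, Yif1b, Ergic3, Ggcx, Jmjd8, Dhdds, Srd5a3, M6pr and Tmf1 passed, whereas Fkbp14, Ero1a, Sec63, Yif1a, Dpm1, Ssr2, Yipf3, Kdelr3 and Ykt6 did not (adjusted p from 0.0656 for Ero1a to 0.143 for Kdelr3). The part of fibroblasts in these rises was not tested. Of 14 measured fibroblast markers 12 lay above 0 with a median of 0.14 and 0 passed (3 at an unadjusted p below 0.05), and their mean deviation was -0.18 to 0.42 with the virus and -0.29 to 0.13 without it. Without TSC22D4 virus it was -0.29 to -0.13 in control and -0.04 to 0.13 in LCN13 arrays.

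**Figure D3:**
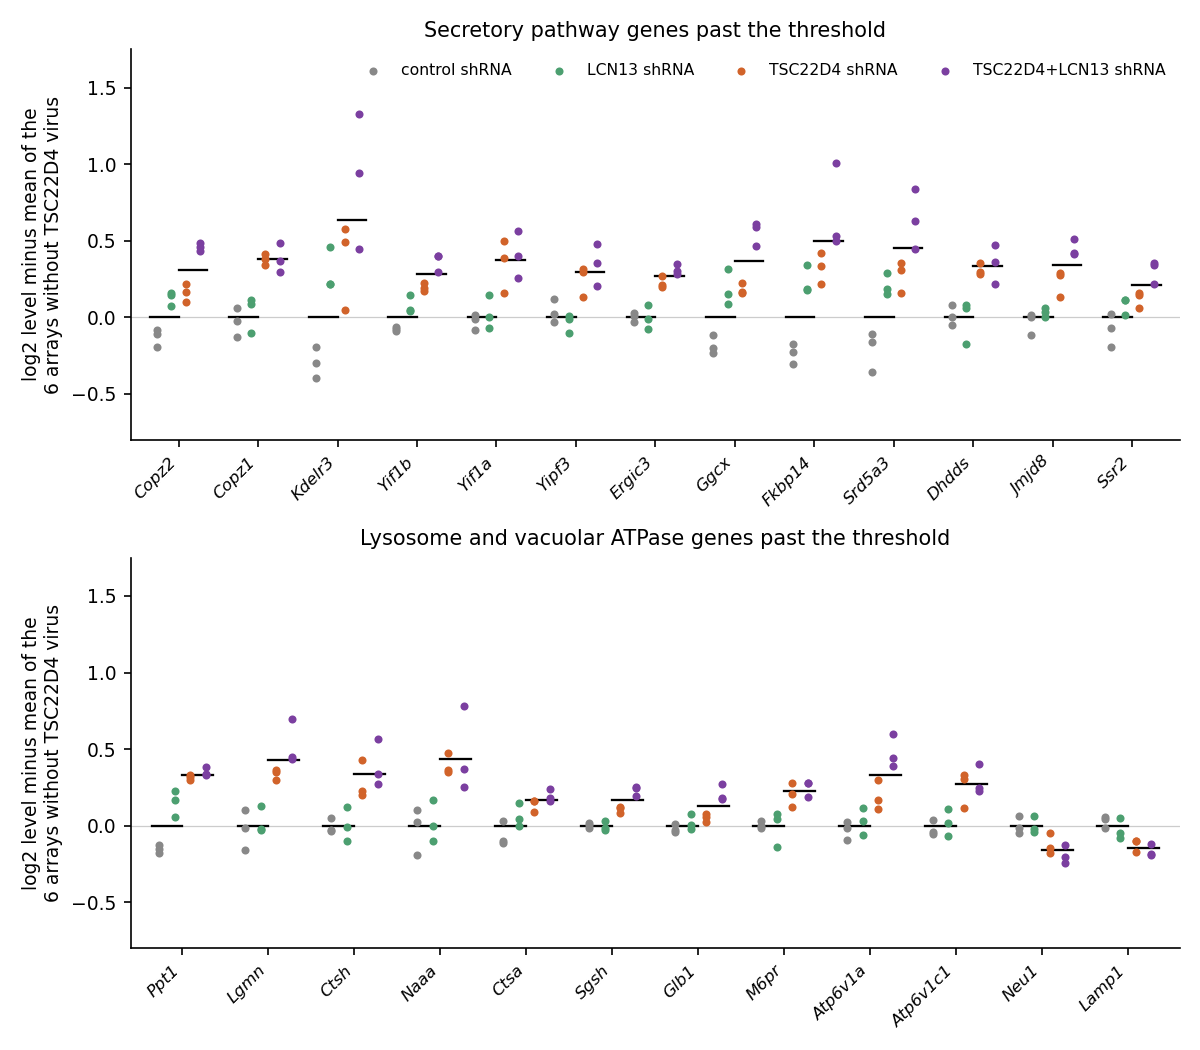
Log2 level of each array minus the mean of the 6 arrays without TSC22D4 virus, for secretory pathway genes that rose (top) and lysosomal genes that passed (bottom), with bars at the means of 6 arrays. The secretory pathway genes that fell (Dpm1, Ero1a, Sec63, Ykt6 and Tmf1) are not drawn. For Copz1, Yif1b, Ergic3 and Dhdds all orange and purple points lie above all grey and green ones, while for Ggcx, Fkbp14 and Srd5a3 the green points of LCN13 shRNA lie between the grey control points and the purple points.

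Single lysosomal genes rose and others fell. Ppt1, which removes palmitate from proteins in lysosomes, measured 9.43, 9.57 and 9.84 without and 9.90, 9.94 and 9.99 with TSC22D4 virus. Its levels did not overlap, and it rose by 0.33 (SE 0.0486, limma adjusted p = 0.0116). Lgmn, a protease that cuts after asparagine, measured 8.65, 8.79 and 8.93 without and 9.11, 9.21 and 9.50 with the virus. It rose by 0.43 (SE 0.0595, limma adjusted p = 0.00995), again without overlap. Ctsh, a cathepsin, rose by 0.34, Naaa, which hydrolyses acylethanolamines, by 0.43, and Sgsh, a sulfatase of heparan sulfate, by 0.17. Atp6v1a and Atp6v1c1, subunits of the proton pump of lysosomes, rose by 0.33 and 0.27. They are 2 of 25 such genes by name (8%, against 0.861% of all probe sets). The sialidase Neu1 fell by 0.16 and the membrane protein Lamp1 by 0.14. In the autophagy and lysosome list 2 of 30 measured genes rose (Ppt1 and Ctsa, 0.16) and 2 fell (Neu1 and Lamp1), with a median of 0.07. Each count is 6.67% of the list, against 0.861% and 1.49% of all probe sets. Within this group, Ppt1, Lgmn, Sgsh and Atp6v1c1 passed limma in all 12 fits that each left out 1 array, and the others in fewer: Ctsh in 11 (highest adjusted p = 0.0575, without animal 22), Atp6v1a in 10 (highest adjusted p = 0.0514, without animal 22), Lamp1 in 8 (highest adjusted p = 0.0652, without animal 32), Naaa in 4 (highest adjusted p = 0.0783, without animal 22), Neu1 in 3 (highest adjusted p = 0.0836, without animal 32) and Ctsa in 2 (highest adjusted p = 0.0843, without animal 22). In the fit that held the hepatocyte score, Ppt1, Lgmn and Ctsh passed, whereas Sgsh, Atp6v1c1, Atp6v1a, Lamp1, Naaa, Neu1 and Ctsa did not (adjusted p from 0.0533 for Atp6v1a to 0.148 for Neu1).

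Transcription factors of the TFE family bind an E-box, TCACGTGA, in promoters of lysosomal genes. The letters, which read alike on both strands and contain the shorter E-box CACGTG, were searched in RefSeq promoters of 300 bases on GRCm38.p6. They were found in 6 of 158 risen genes with a promoter in the table (3.80%), 2 of 260 fallen genes (0.769%) and 1.47% of all 17708 measured genes with a promoter. For CACGTG alone the shares were 14.6%, 10.4% and 9.19%. The matches of Atp6v1a and of Dhdds and Tceal7 are shown because these genes belong to different groups of the risen genes, with the E-box in capitals.
Atp6v1a, chr16:44139358-44139417, minus strand, 132 bases before the start: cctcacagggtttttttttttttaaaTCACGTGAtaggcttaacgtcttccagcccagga
Dhdds, chr4:134001012-134001071, minus strand, 163 bases before the start: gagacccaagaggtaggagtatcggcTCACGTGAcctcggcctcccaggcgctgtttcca
Tceal7, chrX:136223954-136224013, plus strand, 61 bases before the start: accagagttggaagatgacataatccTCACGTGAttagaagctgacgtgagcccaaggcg
A match of letters is a description of the promoter and not a measured binding site.

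Some genes that modify transfer RNA rose. Elp2 and Elp5, subunits of the Elongator complex, which modifies the wobble uridine, rose by 0.37 and 0.30. They are 2 of 5 Elongator genes by name (40%, against 0.861% of all probe sets), a family collected after the values were seen. All 5 lay above 0 in the comparison of 6 with 6, with a median of 0.16, as did 12072 of all 25206 probe sets. One sign on both backgrounds was found in 3 of the 5, and 1 lay below 0 on each background. Mettl1, a methyltransferase of transfer RNA, measured 6.21, 6.40 and 6.50 without and 6.59, 6.72 and 6.78 with the virus. It rose by 0.32 (SE 0.0455, limma adjusted p = 0.0114) with no overlap. Ftsj1, which methylates the ribose of transfer RNA, rose by 0.32. Of enzymes that charge transfer RNA, Wars rose by 0.37 and Tars fell by 0.24. For these genes, Elp5 and Mettl1 passed limma in all 12 fits that each left out 1 array, and the others in fewer: Elp2 in 7 (highest adjusted p = 0.0676, without animal 23), Wars in 7 (highest adjusted p = 0.0696, without animal 32), Tars in 2 (highest adjusted p = 0.0854, without animal 22) and Ftsj1 in 1 (highest adjusted p = 0.0904, without animal 32). With hepatocyte score added, Elp5, Mettl1 and Tars passed and Elp2 (adjusted p = 0.114), Wars (adjusted p = 0.104) and Ftsj1 (adjusted p = 0.146) did not.

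Some mitochondrial genes rose and others fell. Of 44 complex I genes by name (Nduf) 5 rose (11.4%, against 0.861% of all probe sets) and 0 fell, with a median of 0.07. The rises were those of Ndufv3 by 0.35, Ndufc1 by 0.24, Ndufa12 by 0.18, Ndufb9 by 0.10 and Ndufs7 by 0.09. This family was collected after the values were seen. In the respiratory chain list 2 of 46 rose (4.35%) and 0 fell, with a median of 0.05. With LCN13 virus 1 gene of that list rose and 2 fell, and without it 0 passed. Cs, citrate synthase, which opens the citric acid cycle, rose by 0.20, and the other 21 measured genes of its list did not pass. Mrps18b, of the mitochondrial ribosome, measured 10.35, 10.50 and 10.66 without and 10.62, 10.87 and 10.96 with the virus. It rose by 0.32 (SE 0.0336, limma adjusted p = 0.00566), with overlap between the groups of 6, by 0.33 without and 0.31 with LCN13 virus. Of 76 mitochondrial ribosome genes by name 3 rose (3.95%) and 1 fell (1.32%), Mrps9 (-0.25). Of 25 genes of mitochondrial protein import by name 3 fell (12%, against 1.49% of all probe sets). These were Timm29 (-0.28), Tomm7 (-0.28) and Timm13 (-0.26). Both families were likewise collected after the values were seen. Here Ndufc1 and Mrps18b passed limma in all 12 fits that each left out 1 array, and the others in fewer: Mrps9 in 9 (highest adjusted p = 0.0604, without animal 32), Timm29 in 7 (highest adjusted p = 0.0716, without animal 32), Ndufb9 in 7 (highest adjusted p = 0.0644, without animal 22), Ndufs7 in 4 (highest adjusted p = 0.0729, without animal 32), Ndufa12 in 3 (highest adjusted p = 0.0826, without animal 32), Ndufv3 in 2 (highest adjusted p = 0.093, without animal 32), Timm13 in 2 (highest adjusted p = 0.0949, without animal 23), Tomm7 in 2 (highest adjusted p = 0.101, without animal 22) and Cs in 1 (highest adjusted p = 0.09, without animal 22). Given the hepatocyte covariate, Ndufc1 and Mrps18b passed, whereas Mrps9, Timm29, Ndufb9, Ndufs7, Ndufa12, Ndufv3, Timm13, Tomm7 and Cs did not (adjusted p from 0.0763 for Mrps9 to 0.173 for Tomm7).

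Many genes of the interferon list gave large mean differences with different values on the backgrounds. Of the 47 measured genes of the interferon list 6 fell (12.8%, against 1.49% of all probe sets) and 0 rose in the comparison of 6 with 6. The median was -0.42. Without LCN13 virus 28 fell, with a median of -0.76, and with LCN13 virus 3 fell and 3 rose, with a median of -0.04. The mean deviation of the list was 0.56 to 0.86 in the 3 control arrays and -0.32 to -0.17 in all 9 others, so that LCN13 shRNA arrays without TSC22D4 virus were as low as those with it. At 14 of the 47 the effect differed between the backgrounds by the interaction contrast, and there the mean of the effects describes neither. Other lists of interferon-induced genes did not share the shift of the mean. Of 11 interferon-induced GTPases 0 passed by limma (3 at an unadjusted p below 0.05), with a median of 0.05, -0.23 without and 0.36 with LCN13 virus, where 3 rose. Of 17 genes of MHC class I and the immunoproteasome 0 passed (3 unadjusted), with a median of -0.02, -0.19 without and 0.12 with LCN13 virus.

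Ifit1, an antiviral protein that binds foreign RNA, measured 9.31, 9.66 and 9.88 in the control arrays, 7.04, 7.06 and 7.54 with LCN13, 6.50, 6.68 and 6.77 with TSC22D4 and 6.35, 6.50 and 6.73 with both viruses. It fell by 1.83 in the mean (limma adjusted p = 0.0342), with differences of -2.96 without and -0.69 with LCN13 virus, and these differed (interaction adjusted p = 0.0152). Oasl2, of the oligoadenylate synthetase family, measured 8.84, 9.03 and 9.24 in control, 7.21, 7.44 and 7.45 with LCN13, 6.92, 6.93 and 7.06 with TSC22D4 and 6.46, 6.61 and 6.90 with both. Its differences were -2.07 and -0.71, each past the threshold (adjusted p = 0.000105 and 0.0183), and they differed from each other (interaction adjusted p = 0.0253). Irf7, the factor that drives interferon production, had a mean difference of -1.53 and did not pass (limma adjusted p = 0.0571), with -2.65 without and -0.41 with LCN13 virus.

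Adar and Oas3 had differences on both backgrounds. Adar, the enzyme that edits adenosine in double-stranded RNA, measured 6.81, 6.89 and 7.06 in control, 6.51, 6.61 and 6.62 with LCN13, 6.26, 6.34 and 6.38 with TSC22D4 and 6.12, 6.18 and 6.36 with both. It fell by 0.48 (SE 0.0624, limma adjusted p = 0.00984) with -0.60 and -0.36 on the separate backgrounds (interaction adjusted p = 0.538). Oas3, the largest of the oligoadenylate synthetases, fell by 0.28 (SE 0.0343, limma adjusted p = 0.00891), by nearly equal amounts (-0.29 and -0.27, interaction adjusted p = 0.973). In both genes the 6 arrays with the virus lay below the 6 without it. Across the 6 that fell, Oasl2, Adar and Oas3 passed limma in all 12 fits that each left out 1 array, and the others in fewer: Ifit1 in 4 (highest adjusted p = 0.0669, without animal 26), Rnf213 in 2 (highest adjusted p = 0.0763, without animal 25) and Ifih1 in 1 (highest adjusted p = 0.0862, without animal 26). With the hepatocyte score in the fit, Adar and Oas3 passed, whereas Oasl2, Ifit1, Rnf213 and Ifih1 did not (adjusted p from 0.0611 for Oasl2 to 0.13 for Rnf213).

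The interferon-stimulated response element, here GAAA, any 2 bases and GAAA again on either strand, stood in the RefSeq promoter of 14 of 35 genes of the interferon list (40%), 16 of 260 fallen genes (6.15%), 2 of 158 risen genes (1.27%) and 3.87% of all 17708 measured genes with a promoter. The promoters of Ifit1, whose effect differed between the backgrounds, and Oas3, whose effect was nearly equal on both, are shown for comparison, on GRCm38.p6 with matches on either strand in capitals.
Ifit1, chr19:34640769-34640888, plus strand: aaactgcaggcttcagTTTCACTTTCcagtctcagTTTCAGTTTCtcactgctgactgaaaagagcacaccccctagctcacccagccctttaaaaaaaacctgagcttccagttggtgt
Oas3, chr5:120777660-120777779, minus strand: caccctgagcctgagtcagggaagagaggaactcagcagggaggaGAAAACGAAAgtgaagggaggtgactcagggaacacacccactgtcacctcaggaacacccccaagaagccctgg
Ifit1 has 2 matches, 104 and 85 bases before its start, and Oas3 has 1, 75 bases before. Of the other interferon list genes that fell, Oasl2, Adar and Rnf213 had 0 matches in their promoters of 300 bases. Ifih1 had 1, which lay after its start. These are matches of letters, and factor binding was not measured.

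**Figure D4:**
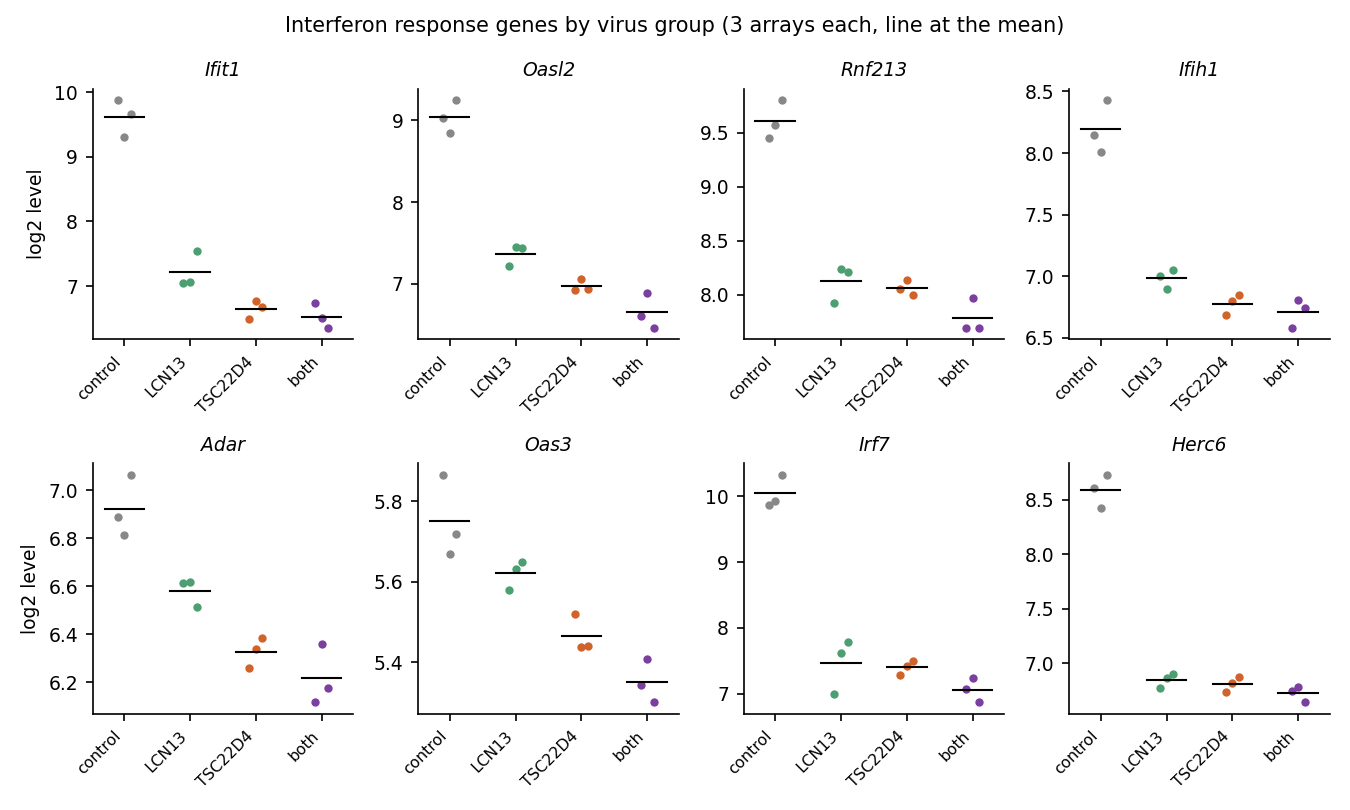
Log2 level of 8 interferon-induced genes on each of the 12 arrays, by virus group, with a line at the mean of 3 arrays. In Ifit1, Oasl2, Rnf213, Ifih1, Irf7, Herc6 and Adar the 3 control arrays stand above the 9 others. In Adar and Oas3 all arrays with TSC22D4 virus lie below all arrays without it.

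Genes of muscle itself rarely passed. Actc1, cardiac alpha-actin, which mature calf muscle makes in small amounts and regenerating fibres in larger ones, measured 11.12, 11.51 and 11.72 without TSC22D4 virus and 11.86, 12.38 and 13.06 with it. The groups did not overlap, and it was 1.94-fold higher (log2 difference 0.95, SE 0.128, limma adjusted p = 0.00995), by 0.79 without and 1.12 with LCN13 virus. In the developmental contractile list of 18 measured genes Actc1 alone rose and 1 gene fell, Igf2, a growth factor (-0.23). In the list of myogenic factors and satellite cell genes 1 of 21 rose and 1 fell (7 and 1 at an unadjusted p below 0.05), with a median of 0.01. The fall was that of Cdh15, the cadherin of muscle precursor cells, by 0.26 without overlap, and the rise that of Tceal7, a small nuclear protein, by 0.65. Mettl21e, a muscle methyltransferase, rose by 0.68. Of 16 fast fibre and 14 slow fibre genes 0 passed (2 and 0 at an unadjusted p below 0.05 by limma), with medians of -0.00 for both. Of 22 calcium handling and 17 neuromuscular junction genes 0 passed (2 and 2 unadjusted), with medians of -0.01 and 0.02. Among these genes, Actc1 and Cdh15 passed limma in all 12 fits that each left out 1 array, and the others in fewer: Tceal7 in 5 (highest adjusted p = 0.0756, without animal 32), Mettl21e in 2 (highest adjusted p = 0.0756, without animal 32) and Igf2 in 2 (highest adjusted p = 0.0826, without animal 32). In the hepatocyte-adjusted fit, Actc1 and Cdh15 passed and Tceal7 (adjusted p = 0.132), Mettl21e (adjusted p = 0.102) and Igf2 (adjusted p = 0.148) did not.

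Some transcripts of red cells were higher. Hbb-b1, beta-globin, measured 5.04, 5.19 and 5.86 without and 5.95, 6.68 and 8.09 with the virus. The groups did not overlap, the 6 arrays with the virus were widely spread, and the level was 2.92-fold higher (log2 difference 1.54, SE 0.299, limma adjusted p = 0.0296). Other beta-globin genes are nearly identical and may share its probes. Alas2, which starts haem synthesis in the precursors of red cells, rose by 1.22, from 5.84, 5.93 and 6.52 to 6.42, 7.18 and 8.23. Tent5c, a poly(A) polymerase, rose by 1.26, and Mpp1, a protein of the red cell membrane skeleton, by 0.51. Of the 10 measured red cell markers 2 rose (20%, against 0.861% of all probe sets) and 0 fell, with a median of 0.21. Epb42, Rhag and Fech did not pass (0.00, -0.01 and -0.04). The mean deviation of the list was -0.03 to 0.58 with the virus and -0.32 to -0.01 without it. How much blood each sample held was not measured. Here Mpp1 passed limma in all 12 fits that each left out 1 array, and the others in fewer: Tent5c in 9 (highest adjusted p = 0.0541, without animal 22), Hbb-b1 in 4 (highest adjusted p = 0.0708, without animal 32) and Alas2 in 4 (highest adjusted p = 0.0814, without animal 22). In the fit with hepatocyte score, Mpp1, Tent5c, Hbb-b1 and Alas2 did not pass (adjusted p from 0.0535 for Mpp1 to 0.139 for Alas2).

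Some transcripts of connective tissue and immune cells were among the largest rises. Wfdc17, a small secreted protein of activated macrophages, measured 5.88, 6.15 and 6.54 without and 6.80, 6.98 and 7.71 with the virus, and rose by 0.89 (SE 0.138, limma adjusted p = 0.0146) without overlap. Cbr2, a carbonyl reductase, measured 8.20, 8.35 and 8.56 without and 8.86, 9.05 and 9.66 with the virus, and rose by 0.77 (SE 0.113, adjusted p = 0.0117). Frzb, a secreted antagonist of Wnt signals, measured 5.88, 6.19 and 6.34 without and 6.59, 6.93 and 7.20 with the virus. It rose by 0.76 (SE 0.124, limma adjusted p = 0.0174), and Wif1, another such antagonist, by 0.61. Mcpt4, a protease of mast cells, rose by 0.66. In the matrix list of 41 measured genes 2 rose (4.88%, against 0.861% of all probe sets). These were Col14a1, a collagen on the surface of fibrils (0.53), and Lamb1, a laminin chain (0.24). In the comparison of 6 with 6, 37 of the 41 lay above 0 with a median of 0.18. The mean deviation of the list was -0.51 to -0.10 in control arrays and 0.04 to 0.17 with LCN13 virus alone. It was -0.25 to 0.14 with TSC22D4 virus alone and -0.12 to 0.45 with both viruses. The collagens Col1a1 and Col1a2 had the largest differences of the list, 0.87 and 0.80, and did not pass. For the risen genes, Wfdc17, Cbr2 and Frzb passed limma in all 12 fits that each left out 1 array, and the others in fewer: Col14a1 in 10 (highest adjusted p = 0.0595, without animal 22), Mcpt4 in 4 (highest adjusted p = 0.0676, without animal 23), Wif1 in 3 (highest adjusted p = 0.0827, without animal 22) and Lamb1 in 0 (highest adjusted p = 0.0982, without animal 22). After adding the hepatocyte score, Cbr2 passed, whereas Wfdc17, Frzb, Col14a1, Mcpt4, Wif1 and Lamb1 did not (adjusted p from 0.0581 for Wfdc17 to 0.141 for Lamb1).

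Markers of macrophages and tendon cells mostly lay above 0, with scores that overlapped between the groups. Their part in these rises was not tested. Lymphocytes had 13 markers above and 7 below 0, Schwann cells and nerve 10 and 2, and endothelium 12 and 10. Hepatocytes had 2 above and 21 below 0, adipocytes 5 and 11, smooth muscle and pericytes 5 and 8, and neutrophils 6 and 7. Of 21 measured macrophage markers 17 lay above 0 with a median of 0.14, 0 passed (12 at an unadjusted p below 0.05, 10 of them higher), and the mean deviation was -0.07 to 0.46 with the virus and -0.22 to 0.04 without it, highest in animal 30. Of 14 tendon markers 12 lay above 0 with a median of 0.22 and 0 passed (3 unadjusted). Their mean deviation was -0.34 to 0.42 with the virus and -0.80 to 0.31 without it, lowest in control animals 18 and 20. Without TSC22D4 virus it was -0.80 to 0.05 in control and 0.09 to 0.31 in LCN13 arrays. With a score of 6 tendon genes as a covariate 803 probe sets passed, and Frzb and Col14a1 among them.

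**Figure D5:**
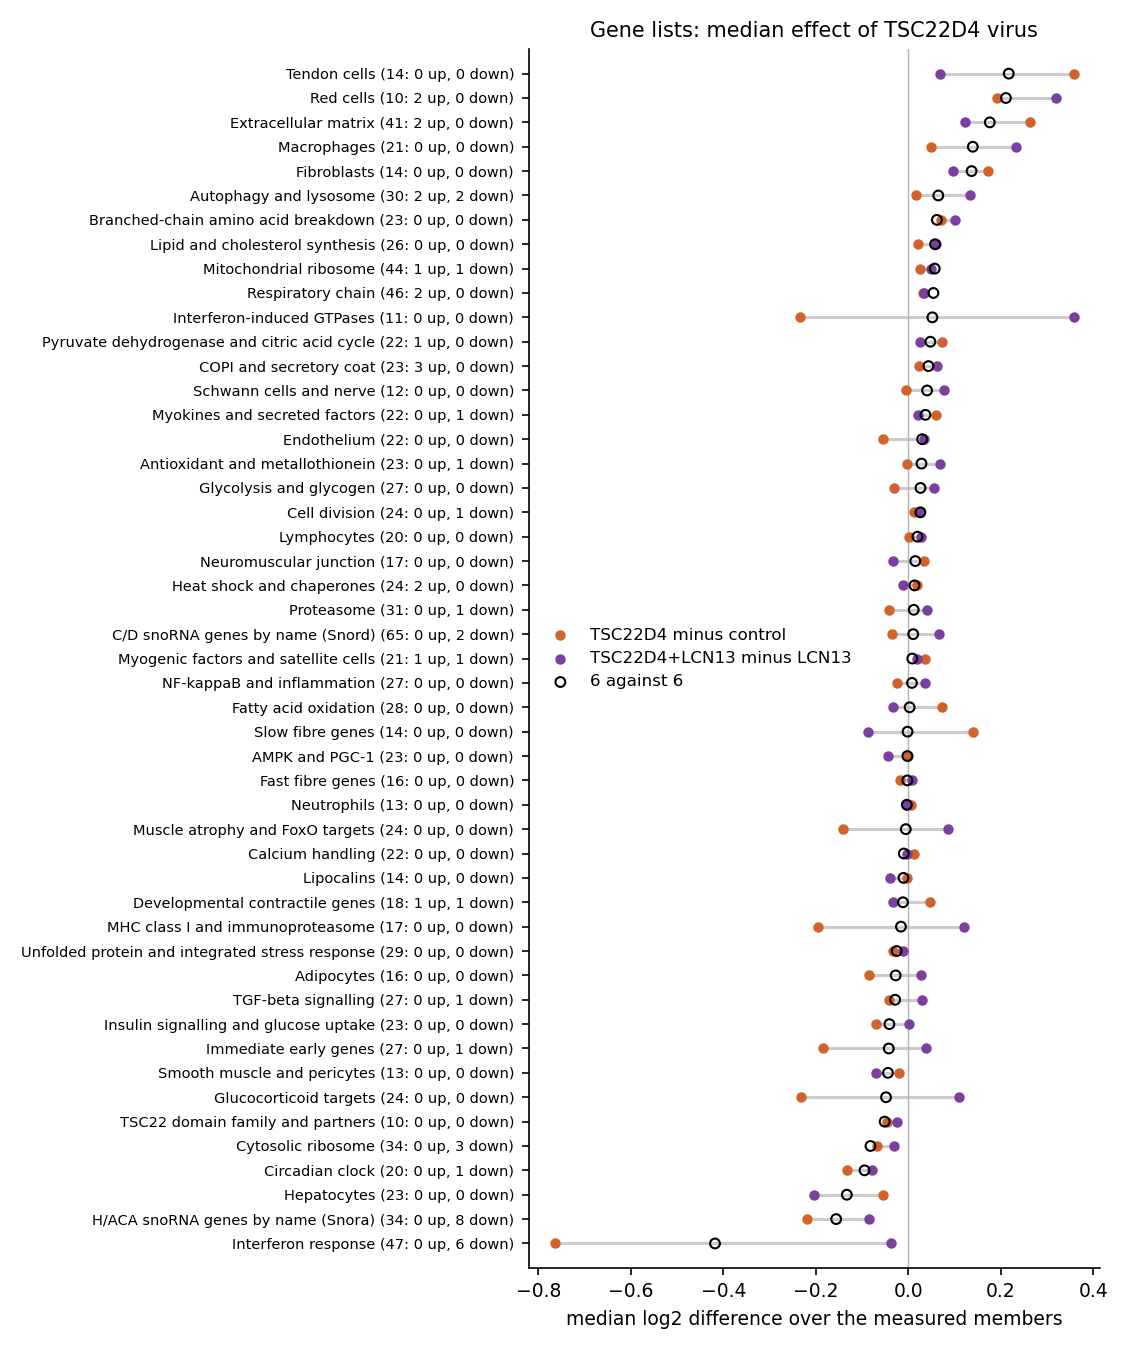
Median log2 difference over the measured members of 47 gene lists and of the small nucleolar RNA genes, without LCN13 virus (orange), with it (purple) and in the comparison of 6 with 6 (open circles), with the number of members that rose and fell. The interferon list has the lowest median, -0.42, with the orange point at -0.76 and the purple at -0.04, while the open circles of metabolic and fibre lists lie within 0.1 of 0.

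Lists of metabolism and hormone response held few or no changes. Of 23 measured genes of insulin signalling and glucose uptake 0 passed by limma (8 at an unadjusted p below 0.05), with a median of -0.04. Fatty acid oxidation had 0 of 28 (1 unadjusted) with a median of 0.00, and glycolysis and glycogen 0 of 27 (6 unadjusted) with 0.03. Lipid and cholesterol synthesis had 0 of 26 (9 unadjusted) with 0.06 and AMPK and PGC-1 0 of 23 (6 unadjusted) with -0.00. Of 23 genes of branched-chain amino acid breakdown 0 passed (6 unadjusted, all higher), while 21 lay above 0 with a median of 0.06. Glucocorticoid targets had 0 of 24 (2 unadjusted), with medians of -0.23 without and 0.11 with LCN13 virus. Single genes passed in other lists: Csnk1e, a kinase of the circadian clock, fell by 0.25, Gclc, of glutathione synthesis, by 0.26, Psmb7, of the proteasome, by 0.21, and the chaperones Bag3 and Stip1 rose by 0.29 and 0.21. For these, Csnk1e passed limma in all 12 fits that each left out 1 array, and the others in fewer: Gclc in 10 (highest adjusted p = 0.0533, without animal 22), Psmb7 in 8 (highest adjusted p = 0.0673, without animal 32), Bag3 in 2 (highest adjusted p = 0.0836, without animal 32) and Stip1 in 2 (highest adjusted p = 0.0966, without animal 23). Under the hepatocyte covariate, Csnk1e, Gclc, Psmb7, Bag3 and Stip1 did not pass (adjusted p from 0.0656 for Csnk1e to 0.159 for Stip1).

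MicroRNA genes were measured through their loci, and the array does not tell the mature form from its precursor. Of 527 such genes, named Mir and a number, 8 fell (1.52%, against 1.49% of all probe sets) and 2 rose (0.38%, against 0.861%). Their median level was 5.06, against 5.45 for all probe sets. Mir1956 measured 9.24, 9.43 and 9.51 without and 8.96, 9.05 and 9.19 with TSC22D4 virus. It fell by 0.34 (SE 0.0349, limma adjusted p = 0.00566) without overlap, with differences of -0.33 without and -0.35 with LCN13 virus. Mir345 fell by 0.30 (SE 0.0379, limma adjusted p = 0.00901), Mir1195 by 0.45 (SE 0.0694, adjusted p = 0.0146) and Mir3091 by 0.31 (SE 0.0496, adjusted p = 0.0151), likewise without overlap. These 4 passed in all 12 fits with 1 array left out. With the hepatocyte score included, Mir1956, Mir345 and Mir3091 passed and Mir1195 (adjusted p = 0.0544) did not. Their mature sequences from RefSeq on GRCm38.p6 are shown because these are the 4 miRNA loci whose falls did not depend on 1 array, with the seed (bases 2 to 8) in capitals.
mmu-miR-1956, chr3:138526425-138526446, plus strand: aGUCCAGGgcugagucagcgga
mmu-miR-345-5p, chr12:108836989-108837010, plus strand: gCUGACCCcuaguccagugcuu
mmu-miR-345-3p, chr12:108837027-108837048, plus strand: cCUGAACUaggggucuggagac
mmu-miR-1195, chr17:70860558-70860580, minus strand: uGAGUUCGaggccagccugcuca
mmu-miR-3091-5p, chr2:180257547-180257567, plus strand: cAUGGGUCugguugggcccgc
mmu-miR-3091-3p, chr2:180257580-180257601, plus strand: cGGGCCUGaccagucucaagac
No seed is shared between these 6 sequences.

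The effect of TSC22D4 virus was set against that of LCN13 virus, which equals the 3 TSC22D4 shRNA arrays against the 3 LCN13 shRNA arrays at equal amounts of control virus. At 8 probe sets the effects differed (0.0317%, with 3192 at an unadjusted p below 0.05 by limma), 3 higher (0.0119%) and 5 lower (0.0198%) with TSC22D4 virus, and 7 of the 8 were among the 593. Scarna13 differed by -1.94 (SE 0.26, limma adjusted p = 0.0478), Snora17 by -1.98 and Snora73a by -1.17. Cdv3 differed by -0.36, Tspan3, a tetraspanin, by 0.35, Ten1, of the complex that copies telomere ends, by 0.40 and Asb10, a ligase adaptor, by 0.54. For Scarna13, Snora17 and Snora73a LCN13 virus had differences of 0.57, 0.63 and 0.31, opposite in sign to those of TSC22D4 virus and not past the threshold. None of these 8 passed when only the probe sets with 1 gene symbol were tested (0, with 2951 at an unadjusted p below 0.05 by limma) or with a tendon score as a covariate (0, with 2567). Between 0 and 21 probe sets passed when 1 array was left out, 0 without animal 20, 21, 23, 25, 30 or 32, 1 without animal 18 or 19, 2 without animal 22 or 26, 14 without animal 27 and 21 without animal 29.

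Junb, an immediate early transcription factor, was the last to pass, with a log2 difference of -0.35 and an adjusted p of 0.0498, and the first not to pass had an adjusted p of 0.0501. Protein-coding genes that rose spanned a median of 18134.5 bases and those that fell 22151, against 18673 for all measured protein-coding genes. Among those above the median level the medians were 16531 and 22469, against 24135.5 for all, so the order of falls and background depended on this restriction. Of the 593 probe sets 53 had a mean level below the median of all probe sets.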

How the data were processed

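RNA from the gastrocnemius of 12 mice was hybridised to 1 array per animal. The deposited table held log2 expression values of 25206 probe sets per array, made by the authors with RMA per the submitters' processing notes, so background, scaling and summarisation over probes were set before deposit. Scanner values and detection calls were not used here, and the sources used here give no batch. The platform annotation named 1 gene for 23185 probe sets, and the 2021 others enter the tests without a name. The probe set design was not used here, and probes may not tell near-identical genes apart.

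The values were fitted with limma 3.58.1 in R 4.3.3 (lmFit and eBayes with default options). The additive fit held TSC22D4 virus and LCN13 virus, with 9 residual and 1.66 prior degrees of freedom. A second fit with 4 group means gave the effect on each background and their difference. Tests were two-sided, with Benjamini-Hochberg adjustment over the 25206 probe sets and a threshold of 0.05. Data for 25206 probe sets were simulated with the spread of the real arrays, drawn independently for each probe set. The additive fit recovered 70%, 94%, 94% and 100% of changes of 0.25, 0.5, 1 and 2 on the log2 scale. It called 4 of the probe sets left unchanged. Variation shared between genes was not simulated, so these rates need not hold for the real arrays.

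Gene lists, 47 of them with 1022 of 1115 listed genes measured, are described by counts and medians without a test. A list's mean deviation is the mean over its members of the level minus that gene's mean over the 12 arrays. The comparison and the lists were chosen with earlier results of these data known, and families by name were collected after the values were seen. The text names a subset of the genes given by a rule: the 15 largest rises and falls with 1 sign on both backgrounds, the 10 rises and 10 falls with the largest smaller background effect, up to 4 called members of each list and up to 2 others, and the TSC22 family. Other named genes were chosen after their values were seen, as examples of a role. Promoter and mature miRNA sequences are those of RefSeq on GRCm38.p6.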

Additional observations from a re-analysis of the deposited data

Results flagged for a closer look

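Among the genes named here, the TSC22D4 virus effect differed between the backgrounds by limma's interaction contrast at 7, all of the interferon response, where 14 of the 47 genes of that list did so. The effect with LCN13 virus minus that without it was 2.28 on the log2 scale for Ifit1, 2.24 for Irf7, 1.66 for Herc6, 1.36 for Oasl2, 1.22 for Dtx3l, 1.21 for Rnf213 and 1.15 for Ifih1. All 7 differences are positive, and in each gene the control arrays had the highest mean of the 4 groups.

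Single arrays stood apart from the 5 others of their 6 by Dixon's test, 15 times in 286 groups of 6 arrays over 143 named genes, and chance flags about 1 in 20 groups. Without TSC22D4 virus, control animal 18 was high in Hbb-b1 (5.86, nearest 5.27), Tars (7.75, nearest 7.61) and Ten1 (6.29, nearest 6.12) and low in Mrps9 (6.91, nearest 7.05). Control animal 20 was high in Csnk1e (11.15, nearest 11.02) and low in Jmjd8 (9.34, nearest 9.45). LCN13 animal 21 was high in Scarna3a (7.00, nearest 6.76), and LCN13 animal 22 was low in Timm13 (6.83, nearest 7.02).

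Among the arrays with the virus, animal 30 of the group with both viruses was high in Gclc (7.79, nearest 7.64) and Lgmn (9.50, nearest 9.25) and low in Tars (7.12, nearest 7.36). Animal 32 was low in Dpm1 (8.45, nearest 8.63) and animal 29 high in Mrps9 (6.97, nearest 6.81). TSC22D4 animal 27 was high in Atrx (7.97, nearest 7.88) and Snrpd1 (5.71, nearest 5.62).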

How the results depend on the processing

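Without 1 array at a time, the number of probe sets past the threshold lay between 217 and 562 for the TSC22D4 virus effect over 6 and 6 arrays, 38 and 104 for the effect without LCN13 virus, 359 and 1431 with it, 1 and 50 for the difference between the backgrounds, and 0 and 21 for the difference between the viruses (2441 to 3487 at an unadjusted p below 0.05 by limma). Against 593 in the 6 with 6 comparison, 177 passed with the hepatocyte score as a covariate, 1101 with 4 group means, the 593 among them, and 374 without LCN13 virus as a factor. The trend and robust options of eBayes gave 530, with 267 up and 263 down. Without LCN13 virus, array weights moved the count from 72 to 188, the tendon score to 26 and a fit of its own 6 arrays to 33. With LCN13 virus, array weights moved it from 1058 to 600, the hepatocyte score to 672 and a fit of its own 6 arrays to 0 (4132 unadjusted). The difference between the backgrounds, with 26 probe sets, gave 53 among probe sets above the median level, 46 with the trend and robust options and 7 with the tendon score. The difference between the viruses, with 8, gave 0 among probe sets with 1 symbol (2951 unadjusted), 13 above the median level, 22 with array weights, 0 with the tendon score (2567 unadjusted), 1 with the hepatocyte score and 37 with 4 group means. The cause of these shifts was not tested. Quantile normalization and centring gave 593 again. Of 129 named genes past the threshold, all kept their direction under the 10 alternatives and the 12 fits without 1 array. The number still past the threshold was 98 with the trend and robust options, 116 with array weights, 104 with the tendon score, 47 with the hepatocyte score, 90 without LCN13 virus as a factor and 122 to 129 under the other 5, and 60 passed in each of the 12 fits. No paired analysis was possible because no animal number occurs in more than 1 group. With 3 arrays a group the precision is limited by their number, and near the floor of the array small differences could not be measured.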
